A study of Mus musculus with 6 samples.

Results

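The 9 macrophage identity genes Csf1r, Spi1, Maf, Mertk, Cebpa, Cebpb, Lyz2, Cd68 and Trem2 were followed through 6 RNA-seq libraries of RAW264.7 cells, a mouse macrophage line transformed by Abelson murine leukemia virus. They were picked by symbol from the 24062 genes of the deposited count tables, and all 9 were found. M0 cells carried no polarizing agent, M1 cells had 24 h of LPS at 100 ng/mL with IFN-γ at 20 ng/mL, and M2 cells had 24 h of IL-4 at 20 ng/mL. RM0, RM1 and RM2 were the same 3 states given 10 Gy of gamma rays from a cesium source and harvested 24 h later. Each condition had 1 library, made from RNA pooled over 5 wells, so no spread between cultures can be measured. The labels also name bone marrow as the tissue, whereas the culture protocol names the cell line, and the sources used here do not state whether the non-irradiated cells were kept in culture for the same extra time. The comparison of interest was how far polarization and irradiation shifted the genes by which a macrophage is recognised.

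Macrophage identity rests on a small set of transcription factors, receptors and lysosomal products. Spi1 encodes PU.1, the ETS factor that opens myeloid enhancers, and it acts with the C/EBP factors encoded by Cebpa and Cebpb. Csf1r encodes the receptor for the survival factors CSF1 and IL-34, Trem2 encodes a lipid-sensing receptor that signals through the adaptor DAP12, and Mertk encodes a receptor for the bridging proteins that mark dying cells. Maf encodes a factor of differentiated macrophages, Lyz2 encodes the lysozyme of myeloid cells, and Cd68 encodes a glycoprotein of the lysosomal membrane.

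The libraries held between 17894937 and 18870516 counted reads, and the 9 genes took from 1.25% of the reads in M1 to 3.35% in RM0, nearly all of them Lyz2. Levels are given in CPM, a gene's counts rescaled to a common library size after scaling with the TMM method of edgeR. A gene was called different between 2 libraries at 2-fold with at least 10 reads in 1 of them, which compares 2 libraries and carries no p-value. The 95% intervals (Clopper-Pearson, exact) describe how a gene's reads divide between a pair of libraries, and only counting error enters them. Effects shared by several conditions were tested with edgeR's quasi-likelihood test in an additive model of polarization and irradiation, in which libraries of the other conditions stand in for replicates. Of 15 macrophage markers, which include the 9 genes, 14 reached 10 reads in some library, the exception being Mertk. The sum of the 15 ran from 343256 reads in M1 to 751139 in RM0. Most of it was Lyz2, and the markers did not all fall in M1. The dendritic cell list summed to 15 to 36 reads, mainly from Zbtb46, and the T cell list to 178 to 244, nearly all from Lck. No other T cell marker exceeded 1 read. All B cell, erythroid and mast cell markers stayed under 10 reads. The neutrophil list summed to between 2852 and 6671 reads in the M0 and M2 libraries with and without irradiation and to 32481 in M1 and 51252 in RM1. S100a8 gave nearly all of these reads, and Elane, Mpo, Ltf, Ngp and Retnlg did not exceed 3 reads. Camp had 13 reads in M1, 4 in RM1 and at most 2 elsewhere, and S100a9 had 19 reads in RM1, 3 in M1 and at most 7 elsewhere. The fibroblast list summed to 128 to 199 reads in those 4 libraries and to 645 and 764 in M1 and RM1, mainly from Dcn, with Col1a2 and Col3a1 at 0. Lum had 14 reads in M1 and 34 in RM1 against 8 and 10 in M0 and RM0, and 16 and 14 in M2 and RM2. It rose with M1 polarization in the additive model by 1.68 on the log2 scale (adjusted p = 0.013). Col1a1 went the other way, with 1 read in M1 and 0 in RM1 against 6 and 11 in M0 and RM0, and Pdgfra had at most 4 reads. Both sums moved with the M1 effects below, and their part in those effects was not tested.

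Of the 9 genes, 7 were well measured and Maf and Mertk were barely present. Per kilobase of transcript, the mean level over the 6 libraries ran from 16303 CPM per kb for Lyz2 through 618 for Cd68, 225 for Cebpb, 144 for Spi1, 139 for Csf1r, 23.3 for Trem2 and 14.2 for Cebpa. Maf and Mertk followed at 0.0731 and 0.0601 CPM per kb. The Maf value divides by a transcript of 6360 bases. That is longer than the span of its listed coordinates, 115703253 to 115706894, so the value may be too low. Spi1 and Csf1r overlapped in their ranges over the libraries, as did Csf1r and Cebpb, Trem2 and Cebpa, and Maf and Mertk, so their order is not fixed. Lyz2 ranked 3 among all genes by mean CPM without regard to length.

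**Figure D1:**
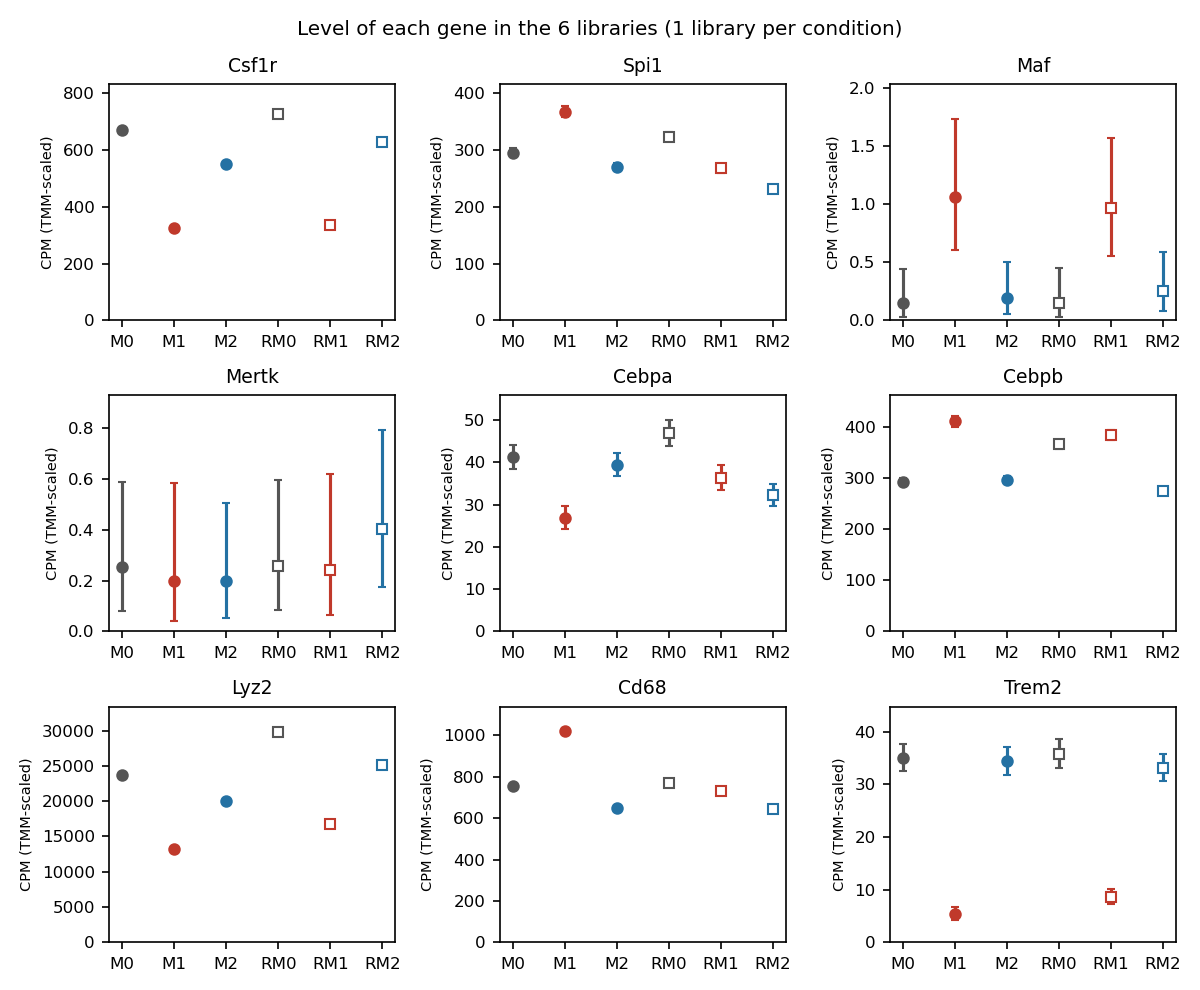
TMM-scaled CPM (vertical axis, linear, from 0) of each of the 9 genes in the 6 libraries (horizontal axis). Filled circles are non-irradiated and open squares irradiated libraries, bars are 95% Poisson intervals for counting error only, and Csf1r, Lyz2 and Trem2 stand lowest in M1 and RM1 (Trem2 at 5.47 and 8.59 CPM against 33.1 to 35.8 in the other 4 libraries).

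LPS with IFN-γ gave the largest differences. In the additive model Csf1r, Cebpa, Lyz2 and Trem2 fell with M1 polarization, while Spi1, Cebpb and Cd68 did not pass the test. In pooled RNA, fewer cells with a transcript and less of it per cell cannot be told apart. Of the 7 genes tested, 4 were lower and 0 higher at an adjusted p under 0.05, beside 24.7% lower and 22.9% higher among all 11574 genes tested. The median log2 fold change of the 7 was -0.49, beside -0.03 over all genes. By the 2-fold call, which 8 of the 9 genes could reach, Csf1r and Trem2 were lower and Maf was higher in M1 against M0, where 13.7% of all genes were called lower and 8.98% higher. The same 3 genes were called in the same directions in RM1 against RM0, a pair that shares no library with the first, beside 7.84% of genes lower and 6.26% higher.

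Among the receptors, Csf1r (NM_001037859, chromosome 18 of GRCm38, 61117532 to 61131139) had 13259 reads in M0, 4855 in M1 and 11174 in M2 and, once irradiated, 14190, 5561 and 12442 in the same order. In CPM both LPS and IFN-γ libraries, at 324 and 336, lay below the other 4, which ran from 550 to 728. Of all genes tested, 32.2% had both of these libraries below the other 4. M1 differed from M0 by a log2 fold change of -1.05 (-1.10 to -1.0) and RM1 from RM0 by -1.11 (-1.16 to -1.07), and the shared effect was -1.08 at an adjusted p of 7.81e-05. The M1 call stood at the edge of the threshold, since with DESeq2 size factors the difference was -0.99. Its ligand Csf1, the growth factor that keeps macrophages alive, went the other way, with 47 reads in M0, 116 in M1, 36 in RM0 and 74 in RM1, and rose in the additive model by 1.5 on the log2 scale (adjusted p = 0.00118). Within the library, Csf1 had 0.354 reads per 100 Csf1r reads in M0 and 2.39 in M1, and 0.254 in RM0 and 1.33 in RM1. The second ligand, Il34, had 30 to 53 reads in every library and did not pass the test for M1 polarization (adjusted p = 0.202).

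Trem2 (NM_031254, chromosome 17, 48346401 to 48352276) showed the steepest fall of the 9 genes. It had 693 reads in M0, 82 in M1 and 698 in M2 and, once irradiated, 698, 142 and 657 in the same order. The 4 libraries without LPS and IFN-γ lay close together, and the other 2 were far below them. It was 6.30-fold lower in M1 than in M0, a log2 fold change of -2.66 (-3.03 to -2.35), and 4.13-fold lower in RM1 than in RM0, at -2.05 (-2.33 to -1.80). The shared effect was -2.34 (adjusted p = 5.94e-06), which ranked 120 by p among all genes. Tyrobp, which encodes the adaptor DAP12 that Trem2 needs to signal, had 9454 reads in M0, 9032 in M1 and 8375 in M2 and, once irradiated, 10182, 7914 and 7915 in the same order, and its M1 effect of 0.11 did not pass (adjusted p = 0.561). Trem2 thus had 7.33 reads per 100 Tyrobp reads in M0 (6.78 to 7.92) and 0.908 in M1 (0.721 to 1.13), then 6.86 in RM0 and 1.79 in RM1 (1.51 to 2.12). In RM1 against M1 Trem2 was higher by 0.64 (0.249 to 1.06), short of the 2-fold call.

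Mertk (NM_008587, chromosome 2, 128698997 to 128802188) had 5, 3, 4, 5, 4 and 8 reads in M0, M1, M2, RM0, RM1 and RM2. No library reached 10 reads, and no difference was detectable at this depth. In RM2 against M2, the pair furthest apart, the interval of the log2 fold change ran from -0.867 to 3.22. The other TAM receptors, which bind the same bridging proteins, were low but measured, with 62 to 87 reads of Axl and 71 to 142 of Tyro3, and neither passed the test for M1 polarization (adjusted p = 0.14 and 0.186). Their bridging ligands moved apart. Gas6 fell with M1 polarization by 1.16 on the log2 scale (adjusted p = 0.00259), from 121 reads in M0 to 34 in M1 and from 139 in RM0 to 61 in RM1. Pros1 rose by 1.16 (adjusted p = 0.000169), from 214 reads in M0 to 360 in M1 and from 229 in RM0 to 438 in RM1.

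Among the transcription factors, Spi1 (NM_011355, chromosome 2, 91096797 to 91115756) had 5837 reads in M0, 5511 in M1 and 5479 in M2 and, once irradiated, 6308, 4426 and 4577 in the same order. The M1 and RM1 libraries fell on opposite sides of their M0 counterparts, with log2 fold changes of 0.32 in M1 against M0 (0.263 to 0.370) and -0.27 in RM1 against RM0 (-0.329 to -0.218). Under scaling by library totals the first turned to -0.10. The shared M1 effect was 0.02 (adjusted p = 0.926). Set beside Spi1 in the same library, where scaling plays no part, Csf1r had 227 reads per 100 Spi1 reads in M0, 88.1 in M1 and 204 in M2, and 225, 126 and 272 after irradiation, so that the receptor fell relative to PU.1 in both LPS and IFN-γ libraries.

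Between the C/EBP genes, Cebpa passed the test for M1 polarization and Cebpb did not, and the difference between them was not tested. Cebpa (NM_007678, chromosome 7, 35119293 to 35121931), which encodes the factor that commits progenitors to the myeloid line, had 817 reads in M0, 403 in M1 and 800 in M2 and, once irradiated, 916, 600 and 640 in the same order. It fell with M1 polarization by 0.49 on the log2 scale (adjusted p = 0.0312), a call that DESeq2 did not make (adjusted p = 0.0622, the highest of the alternatives, the lowest being 0.0107 under scaling by library totals). The 2 groups of libraries overlapped, since RM2 lay below RM1 in CPM. Cebpb (NM_009883, chromosome 2, 167688915 to 167690432), the C/EBP factor of activated macrophages, had 5791 reads in M0, 6174 in M1 and 6024 in M2 and, once irradiated, 7154, 6378 and 5467 in the same order. Its M1 effect of 0.28 did not pass (adjusted p = 0.123). In CPM M1 and RM1 were the 2 highest libraries for Cebpb, as for 29.4% of all genes tested, but as a share of all reads they were not. Cebpa had 14.1 reads per 100 Cebpb reads in M0 (13.1 to 15.2) and 6.53 in M1 (5.89 to 7.22), then 12.8 in RM0 and 9.41 in RM1. Cebpd, a further member of the family, fell like Cebpa, by 0.87 (adjusted p = 0.000489), with 3061 reads in M0, 1226 in M1, 3474 in RM0 and 1663 in RM1.

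Maf (NM_001025577, chromosome 8, 115703253 to 115706894) had 3 reads in M0, 16 in M1 and 4 in M2 and, once irradiated, 3, 16 and 5 in the same order. Both LPS and IFN-γ libraries were higher than the other 4, although few reads carry this. The ratio of scaled reads was 7.03 in M1 against M0, with a log2 interval of 1.01 to 5.24, and 6.29 in RM1 against RM0 (0.848 to 5.07). Maf was too low for the additive model with its minimum of 10 reads in 3 libraries, and with all genes that had any read it passed (log2 fold change of 2.68, adjusted p = 0.00666, the only setting in which Maf was tested).

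Of the lysosomal products, Lyz2 (NM_017372, chromosome 10, 117277541 to 117282272) had 469530 reads in M0, 199329 in M1 and 406315 in M2 and, once irradiated, 580239, 278366 and 498305 in the same order. It took 2.57% of all reads in M0 (2.57 to 2.58) and 1.08% in M1 (1.07 to 1.08), and in CPM M1 and RM1 were again the 2 lowest libraries. The log2 fold changes were -0.84 between M1 and M0 and -0.82 between RM1 and RM0. Lyz2 was thus 1.79-fold and 1.77-fold lower, short of the 2-fold call. The shared effect was -0.83 (adjusted p = 0.00397). Its neighbour and near copy Lyz1, the lysozyme of Paneth cells in the gut, fell too, by 0.69 (adjusted p = 0.005), with 103775 reads in M0, 53177 in M1, 112822 in RM0 and 54035 in RM1. Of the 1217 windows of 100 bases in the longest Lyz2 transcript, 24 (1.97%) also occur in Lyz1, so reads there could be assigned to either gene. For the summed reads of both genes the differences were -0.78 and -0.82.

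Cd68 (NR_110993, chromosome 11, 69664213 to 69666170) had 14910 reads in M0, 15298 in M1 and 13181 in M2 and, once irradiated, 14990, 12059 and 12760 in the same order. It was higher in M1 than in M0 by 0.44 (0.404 to 0.469), but by only 0.02 when scaled by library totals, and RM1 against RM0 gave -0.08 (-0.111 to -0.0413). The shared M1 effect was 0.19 (adjusted p = 0.334). Lyz2 had 3149 reads per 100 Cd68 reads in M0, 1303 in M1, 3871 in RM0 and 2308 in RM1, so that Lyz2 fell relative to Cd68 in both LPS and IFN-γ libraries.

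**Figure D2:**
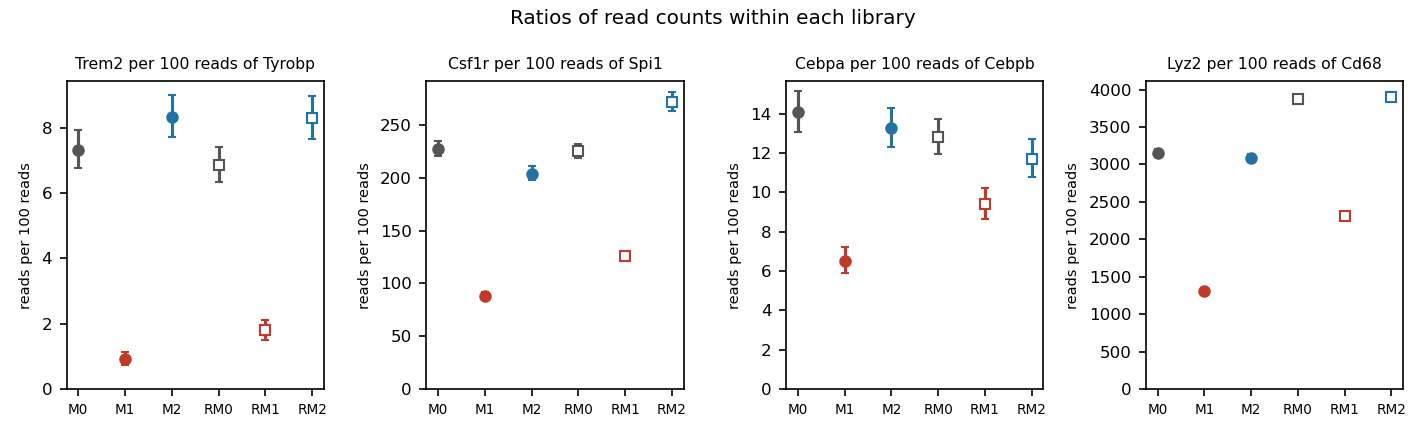
Reads of a first gene per 100 reads of a second gene in the same library (vertical axes, linear, from 0) for the 6 libraries (horizontal axis), filled circles non-irradiated and open squares irradiated, with 95% counting intervals. All 4 ratios are lowest in M1 and second lowest in RM1, for example 0.908 and 1.79 Trem2 reads per 100 Tyrobp reads against 6.86 to 8.33 in the other 4 libraries. The pairs were chosen after values had been seen. Lyz2 reads per 100 Lyz1 reads, not drawn here, did not keep this order, with 452 in M0 and 515 in RM1.

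The promoters of 3 genes that fell with M1 polarization, Trem2, Lyz2 and Cebpa, are shown beside that of Cd68, which did not pass. Promoter sequences of RefSeq (GRCm38.p6) ran from 250 bases before to 50 bases after the start. They were examined for 6 of the 9 genes, namely Mertk, Cebpa, Cebpb, Lyz2, Cd68 and Trem2. Csf1r, which also fell with M1 polarization, was left out of the promoter search, and no entry was found for Spi1 and Maf. The windows are chr17:48346151-48346450 on the plus strand for Trem2, chr10:117282223-117282522 on the minus strand for Lyz2, chr7:35119043-35119342 on the plus strand for Cebpa and chr11:69666121-69666420 on the minus strand for Cd68. Capitals mark GAGGAA, a core that PU.1 and other ETS factors bind, and TTGCNNAA, a C/EBP motif, on either strand.
Trem2: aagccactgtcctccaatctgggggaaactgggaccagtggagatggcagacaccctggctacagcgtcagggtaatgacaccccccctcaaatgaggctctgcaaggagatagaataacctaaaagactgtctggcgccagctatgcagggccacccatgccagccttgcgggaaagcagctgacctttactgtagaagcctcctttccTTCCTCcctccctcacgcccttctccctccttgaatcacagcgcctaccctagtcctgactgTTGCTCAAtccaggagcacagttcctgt
Lyz2: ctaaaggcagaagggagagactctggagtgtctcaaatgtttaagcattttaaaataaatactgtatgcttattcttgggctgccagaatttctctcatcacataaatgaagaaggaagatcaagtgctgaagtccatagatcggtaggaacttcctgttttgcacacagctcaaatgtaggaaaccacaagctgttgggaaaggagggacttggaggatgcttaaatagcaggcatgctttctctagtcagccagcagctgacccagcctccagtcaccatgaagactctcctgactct
Cebpa: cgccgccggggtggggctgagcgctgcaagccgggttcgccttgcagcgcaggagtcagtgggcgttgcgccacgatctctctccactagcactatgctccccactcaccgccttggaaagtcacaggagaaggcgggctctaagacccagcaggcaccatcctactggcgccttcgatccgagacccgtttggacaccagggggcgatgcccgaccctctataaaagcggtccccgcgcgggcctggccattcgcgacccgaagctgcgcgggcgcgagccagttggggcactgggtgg
Cd68: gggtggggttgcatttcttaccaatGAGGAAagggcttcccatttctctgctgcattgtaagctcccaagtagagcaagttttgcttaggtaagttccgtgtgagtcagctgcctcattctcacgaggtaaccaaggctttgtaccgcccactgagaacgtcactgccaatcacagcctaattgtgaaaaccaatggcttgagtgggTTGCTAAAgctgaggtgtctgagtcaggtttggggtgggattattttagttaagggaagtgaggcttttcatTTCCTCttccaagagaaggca
Trem2 held GAGGAA on the minus strand from position -40 and TTGCTCAA from position 23, where 1 is the first transcribed base. Cd68 held GAGGAA from -225 and, on the minus strand, from 30, and TTGCTAAA from -43. The windows of Lyz2 and Cebpa, and those of Mertk and Cebpb, held neither, which says only that these letters are not there. Of 32851 RefSeq promoters of this length, 28.3% held GAGGAA and 10.8% TTGCNNAA. TATAAA, the TATA box, was found in Cebpa from -30 and in Cebpb from 22, and in 13.6% of all promoters. The STAT motif TTCNNNGAA and the E-box CACGTG were found in 0 of the 6 windows, beside 8.30% and 7.15% of all promoters. The motifs do not overlap one another in these windows. Both motifs thus occurred in Trem2 and in Cd68.

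IL-4 moved the 9 genes little. In M2 against M0 the 7 genes that could be called had log2 fold changes from -0.29 for Csf1r to 0.02 for Cebpb, and in RM2 against RM0 from -0.54 for Cebpa to -0.11 for Trem2. None reached 2-fold, beside 0.995% of all genes called higher and 0.442% lower in M2 against M0 and 1.63% higher and 0.97% lower in RM2 against RM0. In the additive model 0 of the 7 passed with edgeR, and 0 had an unadjusted p under 0.05, while DESeq2 also gave 0 on both counts, beside 0.181% of all genes higher and 0.0605% lower with edgeR. All 7 effects were below 0, with a median of -0.25 beside -0.01 over all genes, and adjusted p from 0.492 for Spi1 to 0.882 for Trem2. Without the M1 and RM1 libraries 4 of the 7, Csf1r, Spi1, Cebpa and Lyz2, passed as lower with IL-4, as did 12.5% of all genes in either direction in that fit.

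Irradiation left every one of the 9 genes within 2-fold of its non-irradiated state wherever it could be called. Of all genes 0.727% were called higher and 0.813% lower in RM0 against M0, 3.23% and 2.09% in RM1 against M1, and 1.03% and 0.932% in RM2 against M2. In the additive model 0 of the 7 genes passed with edgeR or with DESeq2, and 1, Lyz2, had an unadjusted p under 0.05 with each tool, beside 0.346% of all genes higher and 0.112% lower by edgeR. Lyz2 was higher by 0.33 in RM0 against M0 (0.320 to 0.331), by 0.34 in RM1 against M1 (0.332 to 0.349) and by 0.33 in RM2 against M2 (0.322 to 0.334), that is 1.25-fold, 1.27-fold and 1.26-fold. Under TMM scaling the 3 states gave nearly the same value from separate pairs of libraries. In the same order the values were 0.33, 0.29 and 0.32 with DESeq2 size factors. Scaling by library totals gave 0.27, 0.45 and 0.27, so how close the states lie depends on the scaling. The test gave an adjusted p of 0.332 with edgeR and 0.187 with DESeq2, and over the alternatives it ran from 0.000195 without the M1 and RM1 libraries to 0.993 without the M2 and RM2 libraries. By a rule chosen after its values were seen, Lyz2 was 1.2-fold higher in all 3 states, as were 2.12% of the 11174 genes that could be compared, and 0 of the 9 were 1.2-fold lower in all 3, as were 1.87% of those genes. Lyz1 gave 0.14, -0.12 and 0.19 in the same order, so that Lyz2 reads per 100 Lyz1 reads went from 452 to 514, from 375 to 515 and from 509 to 560.

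Spi1, Cd68, Cebpb, Cebpa and Trem2 did not keep 1 direction across the 3 states under TMM scaling. Spi1 differed by 0.13 in the M0 state (0.0805 to 0.184), by -0.46 in the M1 state (-0.515 to -0.400) and by -0.23 in the M2 state (-0.283 to -0.169). Cd68 gave 0.03, -0.48 and -0.01, of which only the value in RM1 had an interval far from 0 (-0.519 to -0.450). Its value in RM0 turned to -0.02 under scaling by library totals, which left all 3 below 0. Cebpb gave 0.32, -0.09 and -0.11, the value in RM1 turning to 0.02 under scaling by library totals. Cebpa gave 0.18, 0.43 and -0.29, and Trem2 gave 0.03, 0.64 and -0.05. For Trem2 only the interval in RM1 left 0 out. RM1 thus stood below M1 for both Spi1 and Cd68, while Trem2 and Cebpa stood above it. Csf1r was slightly higher in each state, at 0.12, 0.05 and 0.19, the interval in the M1 state reaching 0 (-0.00110 to 0.111), and Maf had 16 reads in both M1 and RM1. Whether any of these effects differs between the states was not tested, since each state has 1 pair of libraries.

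**Figure D3:**
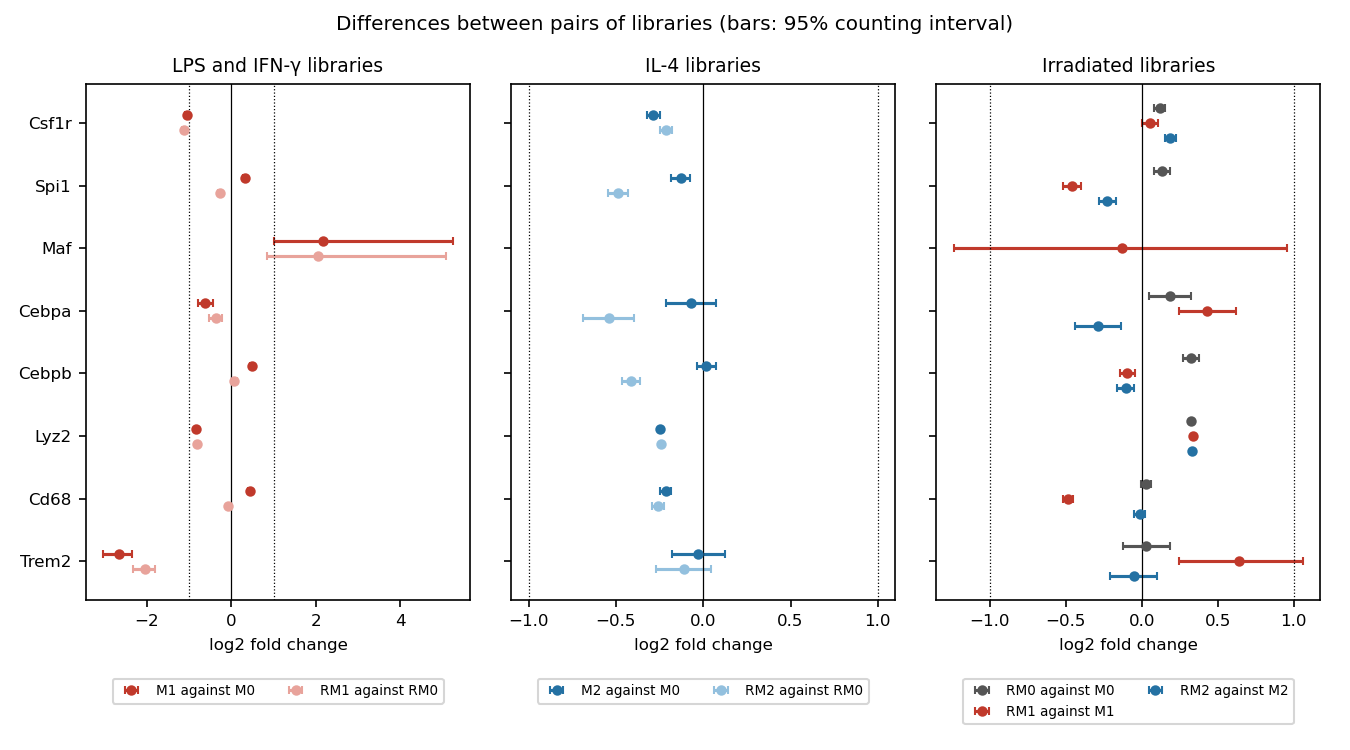
Log2 fold change (horizontal axis) of 8 of the 9 genes (vertical axis; Mertk had fewer than 10 reads throughout) in 7 pairs of libraries, with 95% counting intervals as bars and dotted lines at 2-fold. Trem2 lies at -2.66 and -2.05 and Csf1r at -1.05 and -1.11 in the 2 pairs that differ by LPS and IFN-γ, and Lyz2 lies at 0.33, 0.34 and 0.33 in the 3 irradiated pairs.

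The same M1 comparison was made for genes that work with the 9, and each count below stands beside the 22.9% of all tested genes that were called higher and the 24.7% called lower. Of 18 genes listed around the CSF1R pathway, 8 rose and 3 fell in the additive model. The list also holds Csf2, Csf2ra, Csf2rb and Csf3r, which belong to other colony-stimulating factors, so the counts are not of CSF1R signalling alone. Of these, Csf2 rose by 2.37 (adjusted p = 0.000888) and Csf2rb by 0.68 (adjusted p = 0.000804), while Csf2ra and Csf3r did not pass. Socs1, a feedback inhibitor of cytokine receptors, rose by 2.86 (adjusted p = 0.000521), and Gab2, a docking protein, by 0.93 (adjusted p = 0.000169). Mapk3, the kinase ERK1, rose by 0.68 (adjusted p = 0.00278), and Ptpn6, the phosphatase SHP-1, fell by 0.36 (adjusted p = 0.0259). The median of the list was 0.40, beside -0.03 over all genes.

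Of 24 further myeloid transcription factors, 21 could be tested, of which 6 rose and 8 fell, with a median of -0.20. Irf8, a partner of PU.1, rose by 1.62 (adjusted p = 0.00246) and had 1493 reads in M0, 6225 in M1, 1552 in RM0 and 2052 in RM1, log2 fold changes of 2.46 without and 0.64 with irradiation. Bhlhe40, a repressor induced in activated macrophages, rose by 1.49 (adjusted p = 2e-05). Ets2, an ETS factor, fell by 0.91 (adjusted p = 0.000371), and Cebpe, the granulocytic C/EBP factor, by 1.39 (adjusted p = 0.00385). In the TREM2 and DAP12 list 1 of 13 tested genes rose and 2 fell, with Vav1, an exchange factor, at 0.68 (adjusted p = 0.000991) and Btk, a kinase, at -0.58 (adjusted p = 0.00433). The kinase gene Lyn had 7338 to 9136 reads, and Trem1, an activating receptor, did not pass (adjusted p = 0.212). The median of that list was 0.09, and Trem2 at -2.34 lay far below it. Of 14 tested genes of the TAM receptor and efferocytosis list, 4 rose and 5 fell, with a median of -0.05, among them the scavenger receptor gene Cd36 at 1.27 (adjusted p = 0.000118) and Ucp2, a mitochondrial carrier, at -0.50 (adjusted p = 0.0145).

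Lyz2 and Lyz1 fell where most other lysosomal genes rose. Of 16 lysosome and granule genes 13 rose with M1 polarization and 1, Lyz1, fell, with a median of 0.72, beside 22.9% and 24.7% of all genes. Npc2, which carries cholesterol out of lysosomes, rose by 1.97 (adjusted p = 1.18e-05), Ctsl, a cathepsin, by 1.52 (adjusted p = 0.000148), Psap, the saposin precursor, by 1.15 (adjusted p = 0.00063) and Ctsd, another cathepsin, by 0.59 (adjusted p = 0.0185). Of 16 tested surface markers 8 rose and 1 fell, with a median of 0.55. Fcgr1, the high-affinity IgG receptor, rose by 2.62 (adjusted p = 6.32e-07) and Emr1, also named Adgre1, by 1.81 (adjusted p = 7.11e-06). Cx3cr1, the fractalkine receptor of monocytes and resident macrophages, fell like Trem2, by 2.68 (adjusted p = 3.32e-06), with 526 reads in M0, 72 in M1, 572 in RM0 and 66 in RM1. Cd14 and Itgam, the most abundant surface markers, had 59582 to 86659 and 24525 to 31782 reads.

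**Figure D4:**
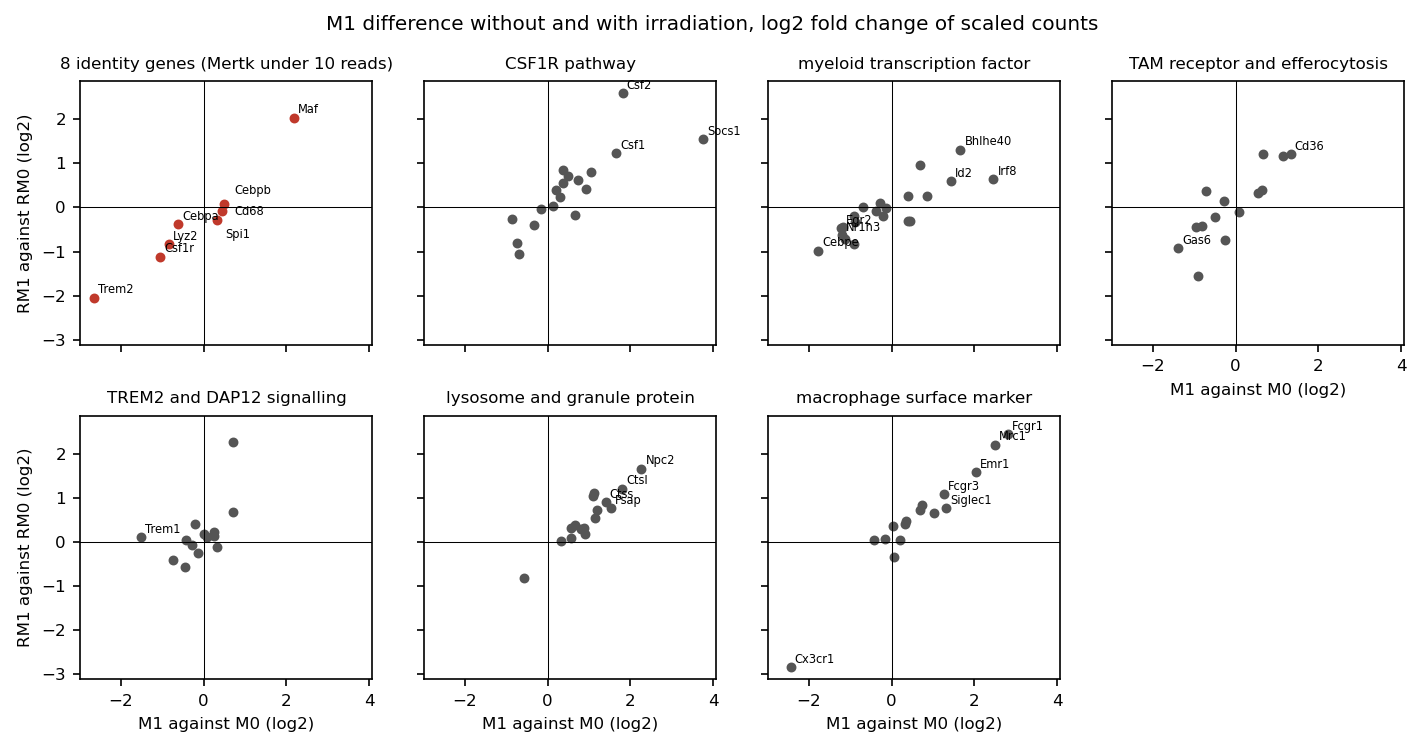
Log2 fold change of M1 against M0 (horizontal axis) and of RM1 against RM0 (vertical axis), 2 pairs with no shared library, for the identity genes and the genes of the 6 lists with at least 10 reads in 1 library of each pair, 1 point per gene. Trem2, Csf1r and Lyz2 lie in the lower left, and Npc2 and Fcgr1 at the upper right of their panels, whereas Trem1 lies at -1.52 without and 0.11 with irradiation.

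Genes with the most similar profile were sought for the 4 identity genes that spanned at least 1 on the log2 CPM scale, among 9405 other genes with a mean of at least 100 reads, by the root mean square difference of centred log2 CPM over the 6 libraries. For Csf1r these were Thtpa at 0.06 and Pcdha4-g at 0.07, and for Lyz2 they were Oma1 at 0.07 and Sbk1 at 0.08. For Trem2 the nearest was Mmachc at 0.09. Mmachc had 204 reads in M0, 25 in M1 and 241 in M2 and, once irradiated, 223, 47 and 231 in the same order. As for Trem2, M1 was the lowest library and RM1 the next, a likeness by which Mmachc was picked. For Maf they were Cks2 and Ifi202b, both at 0.11, but the Maf profile itself rests on 3 to 16 reads.

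The place of the reads limits some values. The coordinates in the tables span 43.1% of the GENCODE M21 gene for Csf1r, 56.8% for Spi1, 14.7% for Maf and 75.8% for Trem2, and whether reads outside were counted is not known. The strand setting of the counting is not given in the sources used here, and 312 of the 1504 exonic bases of Cebpb overlap Tmem189 on the opposite strand, which had 4327 to 5301 reads, while 873 of 5774 exonic bases of Csf1r overlap Hmgxb3, which had 799 to 1246. Reads from these stretches cannot be told apart by gene without strand.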

How the data were processed

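RNA-seq of 6 RAW264.7 libraries was analysed from the count tables. For each condition the authors pooled RNA from 5 wells, used HTSeq for counting, and deposited unnormalized counts of 24062 RefSeq genes with mm10 coordinates. The submitters' processing notes list Trimmomatic 0.36, HISAT2 2.2.1 and HTSeq 0.11.3. Annotation release and strand setting are not given in the sources used here.

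TMM scaling was done in edgeR 4.0.16 (R 4.3.3), with a prior count of 2 in fold changes. The additive model (glmQLFit, glmQLFTest) of 3 polarization states and irradiation had 2 residual degrees of freedom and covered 11574 genes with at least 10 counts in 3 libraries, with Benjamini-Hochberg adjustment at 0.05. It assumes the same effect in every state, and the residual spread its p-values rest on is the departure from additivity between libraries. A count of 3 or fewer in both libraries was given no fold change. DESeq2 1.42.0 was an alternative. Lengths and overlaps came from GENCODE M21 (GRCm38) and promoters from RefSeq, with Python 3.11.15.

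The 9 genes, the lists and the motifs were chosen with earlier results of these data known. From each list the text names the 2 genes with the highest mean CPM and the 3 with the largest M1 against M0 difference at a mean of at least 50 counts, plus ligands, adaptor and paralogs fixed by name, and 2 genes of nearest profile for each of the 9 that spanned at least 1 on the log2 scale. Of the genes so chosen, 2 are not reported here. Ms4a4a was not found by symbol in the tables. The within-library ratios were chosen after values had been seen. Exosome and protein measurements were not analysed here.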

Additional observations from a re-analysis of the deposited data

Results flagged for a closer look

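Cebpa moved in opposite directions after irradiation in 2 of the 3 states. Its log2 fold change was 0.43 in RM1 against M1 (0.248 to 0.619, from 403 to 600 reads) and -0.29 in RM2 against M2 (-0.441 to -0.137, from 800 to 640 reads), each at least 1.2-fold and of the same sign under TMM, DESeq2 and library-total scaling. The difference between the states was not tested, since each rests on 1 pair of libraries, and the intervals cover counting error only.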

How the results depend on the processing

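The number of the 9 genes called at 2-fold in M1 against M0 was 3, and 5 with scaling by library totals alone or at a 1.5-fold threshold, Cebpa and Lyz2 being added in each. At 1.5-fold 1 gene, Trem2, was called in RM1 against M1. In the additive model the count for M2 polarization was 4 without the M1 and RM1 libraries, and that for irradiation was 1, Lyz2, under the same omission. The other 54 recomputed counts stayed within 1.5 times the reported value. With DESeq2 size factors Csf1r left the calls of M1 against M0. Of the recomputed fold changes of single genes 45 left the counting interval and 141 did not, and none of a called gene changed sign. Scaling by library totals moved the median of all genes to -0.46 in M1 against M0 and to -0.25 in RM1 against RM0, and gene differences under it are to be read against those shifts. Over all genes the additive model called 53 for irradiation, and 115 with DESeq2's own test, 134 with genes of any count, 3 under scaling by library totals, and 655, 540 and 85 without the M0, M1 or M2 state and its irradiated counterpart. For M2 polarization it called 28, and 45 with genes of any count, 3 under library totals and 1434 without the M1 and RM1 libraries. No paired analysis was possible because each condition has 1 library, though the additive model compares irradiated and non-irradiated libraries within states. With 1 library per condition, depth limits Maf and Mertk, and the spread between cultures is unknown for every gene.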

Other observations

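Around the identity genes, a few genes of the fixed lists passed for IL-4 in the additive model of all 6 libraries, in which 0 of the 7 identity genes tested did. Those that rose were 1 of 21 myeloid transcription factors, 1 of 14 TAM receptor and efferocytosis genes and 1 of 16 surface markers. A further 2 surface markers fell, and the other lists held 0. Among all genes 0.181% rose and 0.0605% fell. Cd36 rose with M2 polarization by 0.93 on the log2 scale (edgeR's quasi-likelihood test, adjusted p = 0.0459), with 6717 reads in M0, 11165 in M2, 8825 in RM0 and 19929 in RM2. Cx3cr1 fell by 0.98 (adjusted p = 0.0459), with 526 reads in M0, 327 in M2, 572 in RM0 and 247 in RM2. Clec7a, the receptor Dectin-1, rose by 1.33 (adjusted p = 0.0232) and Siglec1, the sialoadhesin of macrophages, fell by 0.99 (adjusted p = 0.0309), both named after their values were seen. Siglec1 rose with M1 polarization, by 1.03 (adjusted p = 0.000289), whereas Cx3cr1 fell with both.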
